A study of Mus musculus with 44 samples.

Results

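The genes described here encode the core of the splicing machinery and its best-known regulators: the Srsf genes for SR proteins, the Hnrnp genes for heterogeneous nuclear ribonucleoproteins (hnRNPs), the Snrp genes for proteins of the small nuclear ribonucleoproteins (snRNPs), the Sf3a and Sf3b genes for subunits of the SF3A and SF3B complexes, and the U2af genes. They were chosen by their symbols, Snrpn being left out. The array carried 86 probes for 48 such symbols, and 42 of these genes passed the filter on detection among 10935 genes tested in all. The 42 genes were 9 SR proteins, 2 U2AF genes, 3 SF3A subunits, 6 SF3B subunits, 5 proteins of the Sm core, 3 proteins specific to the U1 or U2 snRNP and 14 hnRNPs. The 6 that did not pass were Hnrnpa3, Hnrnpr, Hnrnph2, Hnrnpd, Snrpb2 and Snrpe, whose probes were each detected on 0 or 1 of the 44 arrays. Of the Sm ring, Snrpe was therefore not measured, and Snrpf was not among the 48 symbols. The symbol U2af1, of the small U2AF subunit, was not among them either.

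Splicing removes introns from a transcript and joins its exons. The snRNPs do this work: each holds a small nuclear RNA inside a ring of Sm proteins, with further proteins of its own, and SF3A and SF3B belong to the U2 snRNP, which settles on the branch point after U2AF has marked the end of the intron. SR proteins mostly bind within exons and help them to be used, whereas hnRNPs coat nascent transcripts and often keep exons or cryptic sites from being used, so that the balance between both classes shifts which exons a cell keeps. Sm rings are loaded onto the small nuclear RNAs by the SMN and Gemin proteins after the PRMT5 and WDR77 enzyme has methylated some of the Sm proteins. In the fetal gonad, female germ cells enter meiosis while male germ cells stop dividing and enter a resting state.

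The study profiled mouse primordial germ cells (PGC), from which eggs and sperm descend, after isolation by fluorescence-activated cell sorting, on expression beadchips with 1 array per sample. The fetal groups were PGC at embryonic day (E) 11.5, with no sex given, and female (F) and male (M) PGC at E12.5, E13.5, E14.5, E15.5, E16.5, E17.5 and E18.5. The groups after birth were cells from males, labelled as the same cell type, at 8, 10, 12, 14, 16, 18 and 20 days post partum (P8 to P20). A male embryonic stem cell (ESC) line called OG2, which carries an Oct4-GFP reporter, was the single reference of cultured cells. Of the 23 groups, 21 had 2 arrays, while ESC and P14 had 1. No genotype was given for the animals, and no treatment was recorded, so that sex and age are what separate the groups of PGC. Whether the duplicates came from separate animals was not settled by the labels, so the p-values below measure the spread between these arrays, which may be technical in part.

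Levels are given as log2 of the background-corrected, quantile-normalised bead intensity of the brightest probe of a gene. The levels of different probes cannot be set against each other. A gene was called changed when the limma moderated test gave a Benjamini-Hochberg adjusted p under 0.05 over all genes and the change was at least 2-fold. Where every array of a group lay below detection, the fold is a lower bound. It sets the mean of the brighter group against the mean, over the arrays of the dim group, of the higher of the dimmest detected probe and the gene's own value. In sorted bulk samples, fewer cells of a type and less RNA per cell cannot be told apart.

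The upper quartile of raw intensity was 323.6 on the ESC array, 85.9 to 170.2 on 28 arrays of fetal PGC, 79.9 and 82.4 on the arrays of E16.5 females, and 295.5 to 605.5 on the 13 arrays after birth. Brightness and birth therefore cannot be told apart. Members were detected on 37 to 41 of 42 probes per array, except for 28 and 30 on the arrays of E16.5 females, which are described apart. Germ cell markers, of which 9 were tested, averaged between 7.05 in E15.5 females and 10.6 in E14.5 males, and Dazl, a germ cell RNA-binding protein, was detected on all 44 arrays.

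Most of the 42 genes were detected throughout: 27 of them on all 44 arrays. The span between the lowest and the highest group mean, over all groups except ESC and E16.5 females, ran from 0.64 for Sf3b1 to 3.48 for Hnrnpa1. Sf3b1, the subunit of SF3B that contacts the branch point, was detected on only 2 arrays, so its small span is set by the background of the array. Srsf1, a general SR protein, was detected everywhere and spanned 0.72, and Snrpd2, an Sm core protein, spanned 0.75. The widest spans after Hnrnpa1 were those of Hnrnph3, at 3.35, Srsf3, at 3.24, Sf3b4, at 3.21, and Hnrnph1, at 2.82.

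**Figure D1:**
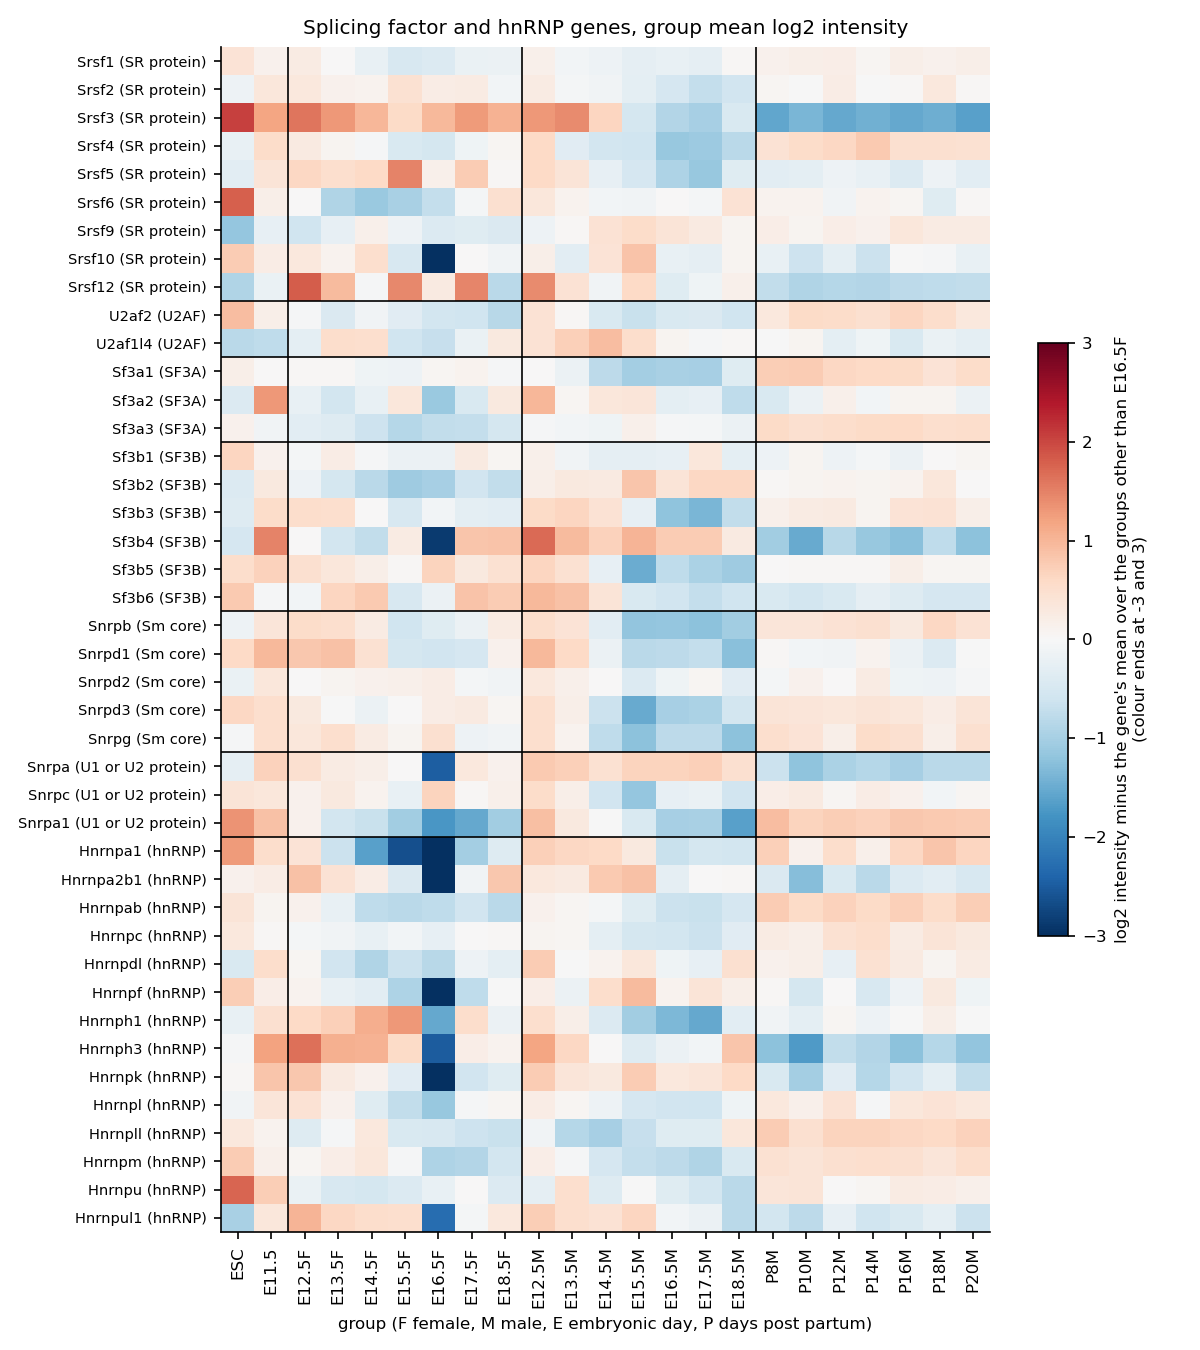
Level of each of the 42 splicing factor and hnRNP genes in each group, as the difference in log2 intensity from the gene's mean, with the genes in rows by role and the groups in columns. The Sm core genes other than Snrpd2 lie low in males from E15.5 to E18.5, and the column of E16.5 females is lowest for several hnRNPs.

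In male PGC, 9 of the 17 genes for snRNP proteins (Sm core, U1 or U2, SF3A and SF3B) had lower transcript levels at E15.5 than at E12.5, none had higher ones in limma, and 8 were not called. Of the 42 genes, 15 were lower at E15.5 and 0 were higher, where 16.2% of all genes tested were lower and 18.5% higher (34.7% in either direction). The median change of the members was -0.65 on the log2 scale, against 0.02 for all genes. By role, 4 of 5 Sm core genes, 2 of 3 proteins specific to U1 or U2, 3 of 9 SR proteins, 2 of 6 SF3B subunits, 1 of 3 SF3A subunits, 1 of 2 U2AF genes and 2 of 14 hnRNPs were lower.

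Snrpd3, an Sm core protein, gave the smallest adjusted p of them. Its level was 12.35 and 12.43 at E12.5, 11.91 and 12.18 at E13.5, 11.50 and 10.97 at E14.5, and 10.32 and 10.42 at E15.5. The values of each day lay below those of the day before without overlap. The change from E12.5 to E15.5 was -2.02 with a standard error (SE) of 0.15, a 4.05-fold drop (limma, adjusted p = 3.03e-11, n = 2 arrays a day). Snrpg, another Sm core protein, stood at 12.44 and 12.37 at E12.5 and at 10.66 and 10.67 at E15.5, a change of -1.74 with an SE of 0.17. Snrpb, which gives the SmB proteins of the ring, went from 12.17 and 12.34 to 10.53 and 10.57, a change of -1.70 with an SE of 0.14. In each of these genes both later arrays lay well below both earlier ones. Snrpd1, a further Sm core protein, had levels of 12.34 and 12.26 at E12.5 and of 10.42 and 10.59 at E15.5, and changed by -1.80 with an SE of 0.18. A further probe of Snrpb changed by -2.22 and a further probe of Snrpd1 by -1.94, both also called. Snrpd2 was the Sm core gene that missed the call: it measured 12.98 and 12.93 at E12.5 and 12.23 and 12.21 at E15.5, a change of -0.73, which is under 2-fold.

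The second array of E14.5 males lay nearer to the E15.5 level than the first array did for each of the Sm core genes named. For Snrpg the first array read 11.55 and the second 10.73, and for Snrpc the first read 8.13 and the second 6.50.

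Of the 3 genes for proteins specific to the U1 and U2 snRNPs, 2 fell. Snrpc, the U1 protein C that steadies the pairing of U1 with the start of an intron, was at 8.61 and 8.30 at E12.5 and at 6.74 and 6.74 at E15.5. That was a change of -1.72 with an SE of 0.30 (limma, adjusted p = 3.62e-05). Snrpa1, the U2 protein A', went from 10.88 and 11.09 to 9.57 and 9.67, a change of -1.36 with an SE of 0.15. Snrpa, the U1 protein A, read 11.57 and 11.62 at E12.5 and 11.49 and 11.44 at E15.5, and its change of -0.13 was not called.

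Within SF3B, Sf3b5, a small subunit of the complex, had the largest change of all 42 genes in this comparison. Its level was 11.85 and 11.88 at E12.5 and 9.78 and 9.67 at E15.5, a change of -2.14 with an SE of 0.18 (limma, adjusted p = 2.00e-10). Sf3b6, the subunit that meets the branch point adenosine, was detected on both arrays at E12.5 and on neither at E15.5, and was at least 1.67-fold lower. Sf3a1, the largest subunit of SF3A, changed by -1.04, and U2af2, the large subunit of U2AF, by -1.10. Both genes were called, with both later arrays below both earlier ones.

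Among the SR proteins, Srsf3 was lower by the most. It measured 8.24 and 8.51 at E12.5 and 6.64 and 6.48 at E15.5, a change of -1.82 with an SE of 0.23 (limma, adjusted p = 2.99e-07), and its other probe changed by -2.37. Srsf4 changed by -1.18 and Srsf5 by -1.10, both called, although the other probe of Srsf5 gave -0.84, under 2-fold. The reference SR proteins Srsf1 and Srsf2 differed by -0.41 and -0.54, both under 2-fold. The 2 hnRNPs that were lower were Hnrnph1, at -1.54, and its relative Hnrnph3, at -1.56, which both bind runs of G. Hnrnpc, which covers tracts of U, differed by -0.61 on its brightest probe. Its other probe changed by -2.71, so the 2 probes of this gene disagree in size. Among the markers of other gonadal cells, 1 of 10 Sertoli cell markers was higher at E15.5 and 4 were lower, with a mean level of 6.65 at E12.5 and 5.99 at E15.5. Sox9 and Amh, which define these cells, were detected on 3 and 6 arrays of the whole series, and Fshr and Gata4 on 3 and 4. The other Sertoli markers, Dhh, Cst9, Clu, Inha, Wt1 and Gstm6, were detected on 25 to 36 arrays. From E12.5 to E15.5 in males, Clu went from 7.61 to 9.34 and Cst9 from 9.55 to 6.36. The part of these cells in the changes above was not tested.

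**Figure D2:**
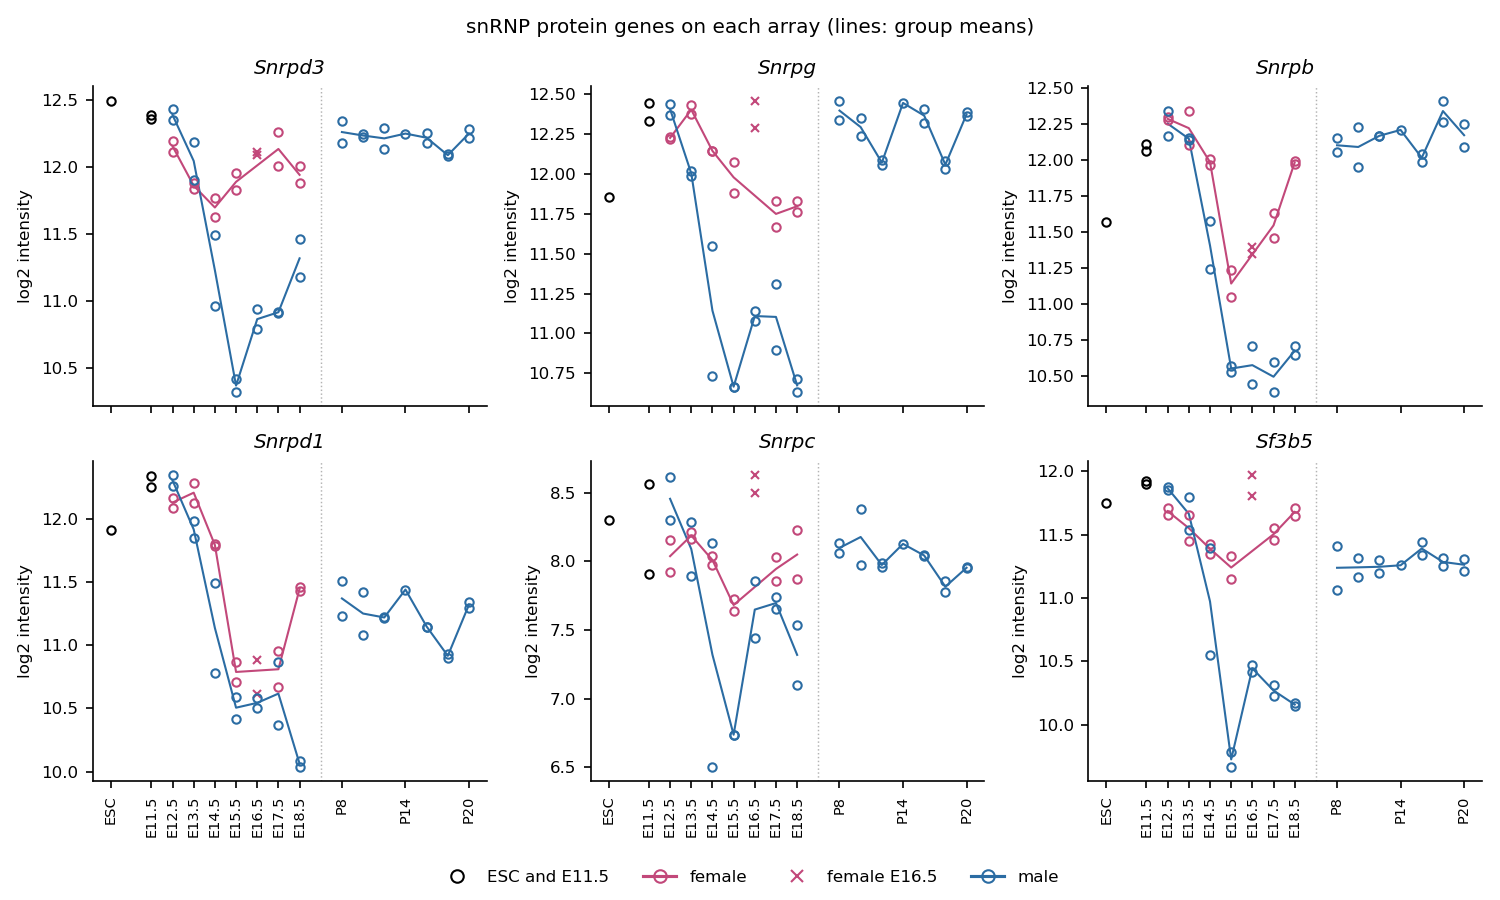
Log2 intensity of 6 snRNP genes (Snrpd3, Snrpg, Snrpb, Snrpd1, Snrpc and Sf3b5) on each array by age, with females and males in separate colours, points for arrays and lines through the group means. Males lie below females for all 6 genes at E15.5, and for Snrpd3 the male arrays read 10.32 and 10.42 against 11.83 and 11.95 in females.

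The sequences just upstream of 5 of these genes are shown because they represent the groups that moved apart: 3 snRNP genes that were lower in males, and Srsf5 and Hnrnpa1, which diverged between the sexes. Each is the 250 bases before the annotated start, on the plus strand, from RefSeq's GRCm38.p6 annotation. Capitals mark CCGGAAG (the letters of an ETS-type site), GGGCGG (a GC box) and CCAAT, on either strand, and neighbouring matches can overlap. The windows are Snrpd3 at chr10:75517792-75518041, Snrpg at chr6:86371290-86371539, Snrpc at chr17:27839837-27840086, Srsf5 at chr12:80945249-80945498 and Hnrnpa1 at chr15:103240147-103240396.
Snrpd3: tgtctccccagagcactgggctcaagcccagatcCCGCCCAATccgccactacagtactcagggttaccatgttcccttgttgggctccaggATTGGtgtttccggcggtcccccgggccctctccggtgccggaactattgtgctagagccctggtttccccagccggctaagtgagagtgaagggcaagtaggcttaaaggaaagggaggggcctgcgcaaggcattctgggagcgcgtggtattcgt
Snrpg: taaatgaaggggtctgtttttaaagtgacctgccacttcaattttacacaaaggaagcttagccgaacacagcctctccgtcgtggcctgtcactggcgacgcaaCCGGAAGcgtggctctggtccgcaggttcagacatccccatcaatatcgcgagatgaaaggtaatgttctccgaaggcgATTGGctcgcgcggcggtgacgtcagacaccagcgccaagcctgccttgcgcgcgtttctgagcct
Snrpc: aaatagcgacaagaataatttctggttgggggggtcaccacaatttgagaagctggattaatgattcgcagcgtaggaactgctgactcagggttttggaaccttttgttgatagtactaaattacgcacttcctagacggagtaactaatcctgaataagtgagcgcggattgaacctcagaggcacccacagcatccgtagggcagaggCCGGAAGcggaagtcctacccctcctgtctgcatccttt
Srsf5: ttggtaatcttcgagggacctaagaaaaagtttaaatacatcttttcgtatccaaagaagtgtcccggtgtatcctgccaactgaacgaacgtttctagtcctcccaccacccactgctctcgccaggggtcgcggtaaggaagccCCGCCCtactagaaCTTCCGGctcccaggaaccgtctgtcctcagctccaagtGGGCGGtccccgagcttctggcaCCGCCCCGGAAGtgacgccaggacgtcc
Hnrnpa1: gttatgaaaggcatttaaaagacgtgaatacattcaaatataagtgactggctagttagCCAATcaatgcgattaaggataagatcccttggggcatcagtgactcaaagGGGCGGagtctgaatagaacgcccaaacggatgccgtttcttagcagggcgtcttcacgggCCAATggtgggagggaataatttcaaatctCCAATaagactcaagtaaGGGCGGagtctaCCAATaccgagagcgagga

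A promoter window was matched for 36 of the 42 genes, 6 of which had several starts, giving 48 windows, some of which overlap. CCGGAAG stood in 14 of them, or 29.2%, against 6.91% of all 32851 windows of the same length. GGGCGG stood in 66.7% of the members' windows and in 32.7% of all, CCAAT in 43.8% and 33.9%, and TATAAA, searched likewise on both strands, in 10.4% and 12.4%. In the windows shown, Snrpg and Snrpc hold 1 CCGGAAG each and Srsf5 holds 2, while Snrpd3 and Hnrnpa1 hold none. GGGCGG stands in the windows of Snrpd3, Hnrnpa1 and Srsf5, and CCAAT in those of Snrpd3, Hnrnpa1 and Snrpg. A match is a run of letters and not a measured binding site.

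In female PGC over the same days, hnRNPs made up most of the genes that fell. Of the 42 genes, 11 were lower at E15.5 than at E12.5 and 0 were higher, where 14.9% of all genes were lower and 14.1% higher. The median change of the members was -0.45, against 0.01 for all genes. With arrays scaled to a common median, 24 were lower and 0 higher. The 11 were 6 of 14 hnRNPs, 2 of 5 Sm core genes, and 1 gene each of the SR proteins, SF3B and the proteins specific to U1 or U2.

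Hnrnpa1, an abundant hnRNP that represses exons and the splice sites near it, changed by far the most. In females it measured 10.69 and 10.63 at E12.5, 9.81 and 9.35 at E13.5, 8.74 and 8.49 at E14.5, and 7.92 and 7.26 at E15.5. The values of each day lay below those of the day before, with no overlap. The change over the whole interval was -3.07 with an SE of 0.24, an 8.39-fold drop (limma, adjusted p = 1.39e-10). Hnrnpa2b1, its close relative, went from 12.42 and 12.33 to 11.10 and 11.06, a change of -1.30, while its other probe gave -0.96, which was not called. Hnrnpl, which binds CA repeats, changed by -1.17, and Hnrnpk, which binds runs of C, by -1.15. For Hnrnpk the second array read lower than the first at both E13.5 (11.15 and 10.11) and E14.5 (10.94 and 10.02), while both arrays read 11.17 at E12.5. One further probe of Hnrnpk changed by -1.38, which was called, and another by -0.39, which was not. A further probe of Hnrnpa1 changed by -1.92, also called.

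Of the snRNP genes, Snrpb and Snrpd1 fell in females as well as in males. Snrpb in females was at 12.30 and 12.28 at E12.5 and at 11.05 and 11.24 at E15.5, a change of -1.14. Snrpd1 was at 12.17 and 12.09 and then at 10.71 and 10.87, a change of -1.34, and Snrpa1 changed by -1.18. These 3 genes did not overlap between the days. Srsf3 changed by -1.04 and was the SR protein that was called. Germ cell markers were lower too: 6 of the 9 tested fell between these days and their mean level went from 10.3 at E12.5 to 7.05 at E15.5, whereas Ddx4, an RNA helicase of germ cells, averaged 9.4 and 8.7. Some markers of other cells moved the other way: 4 of 7 mesenchymal markers and 1 of 4 erythroid markers rose. Of 6 endothelial markers 1 rose and 1 fell, with Tek going from 5.11 to 7.14 and Pecam1 from 9.85 to 5.42. The mesenchymal mean went from 4.77 to 6.28, and the globin gene Hba-a1 went from 7.36 to 12.96. The part of these shifts in the changes of the splicing genes was not tested.

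The change from E12.5 to E15.5 was then compared between the sexes within the fit. It differed for 11 of the 42 genes, where 38.0% of all genes tested differed. The change was more positive in females for 6 of them and more negative for 5, where 17.9% and 20.0% of all genes were so. The 6 were Hnrnph1, Srsf5, Snrpd3, Sf3b5, Snrpg and Snrpc, and the 5 were Hnrnpa1, Hnrnpa2b1, Hnrnpf, Sf3b2 and Srsf10. At E15.5 the upper quartile of raw intensity was 90.5 and 93.8 in females and 113.8 and 98.7 in males. Probes detected were 34.6% and 33.6% in females and 43.4% and 41.9% in males. The part of brightness in these differences was not tested.

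On their brightest probes, Srsf5 and Hnrnph1 parted in opposite directions. Srsf5, an SR protein, measured 11.87 and 11.84 in E12.5 females and 12.77 and 12.68 in E15.5 females, and in males 11.80 and 11.85 and then 10.62 and 10.83. Female arrays thus ended above where they started and male arrays below, with the sexes alike at E12.5. The change was 0.87 in females, which is under 2-fold, and -1.10 in males, and the difference between them was 1.97 with an SE of 0.21 (limma, adjusted p = 3.26e-08). Hnrnph1 measured 11.76 and 11.70 in E12.5 females and 12.48 and 12.37 in E15.5 females, against 11.67 and 11.59 and then 10.08 and 10.10 in males. The difference of the changes was 2.24 with an SE of 0.19 (limma, adjusted p = 1.17e-09). Other probes did not all show the higher level in E15.5 females. The other probe of Srsf5 changed by 0.065 in females and -0.84 in males, a difference of 0.90 that is under 2-fold (limma, adjusted p = 0.00225). Of the 4 other probes of Hnrnph1, a pair changed by 0.36 and 0.37 in females, and their differences of 1.81 and 1.88 were called. The remaining pair changed by -0.64 and -1.02 in females and by -2.49 and -1.82 in males, and their differences of 1.85 and 0.80 were not called (limma, adjusted p = 0.0835 and 0.396).

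Among the 17 snRNP genes the change differed between the sexes for 5, where 38.0% of all genes differed. It was more positive in females for 4 and more negative for Sf3b2, where 17.9% and 20.0% of all genes were so. Snrpd3 read 12.11 and 12.20 in E12.5 females and 11.83 and 11.95 in E15.5 females, a change of -0.27, and the difference from the males was 1.75 with an SE of 0.21. Snrpg changed by -0.25 in females, with a difference of 1.49, Sf3b5 by -0.45, with a difference of 1.70, and Snrpc by -0.36, with a difference of 1.36. For Snrpb and Snrpd1, which fell in both sexes, the difference was 0.56 with adjusted p = 0.0234 and 0.46 with adjusted p = 0.162, and neither reached 2-fold.

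On the brightest probes, Hnrnpa1 gave the largest difference of the opposite sign. In males it read 10.91 and 11.02 at E12.5 and 10.37 and 10.69 at E15.5, a change of -0.43 that was not called, and the difference between the sexes was -2.63 with an SE of 0.34 (limma, adjusted p = 7.15e-07). Its other probe changed by -1.92 in females and -1.06 in males, and the difference of -0.85 with an SE of 0.67 was not called (limma, adjusted p = 0.331). Sf3b2, a large SF3B subunit, read 11.44 and 11.31 and then 10.56 and 10.39 in females, and 11.72 and 11.72 and then 12.44 and 12.32 in males. It thus moved down in females and up in males, by -0.90 and 0.65, both under 2-fold. The difference was -1.55 with an SE of 0.19 (limma, adjusted p = 4.25e-07). The differences for Hnrnpa2b1, at -1.86, Hnrnpf, at -1.78, and Srsf10, at -1.47, came with larger SEs of 0.61, 0.55 and 0.42. The other probe of Hnrnpa2b1 gave -0.78, not called, and those of Srsf10 gave -1.48, called, and -0.37, not called. Other probes of Hnrnpc, Hnrnpll and Hnrnpdl were called, at 2.19, 2.40 and -1.35, where their brightest probes were not.

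**Figure D3:**
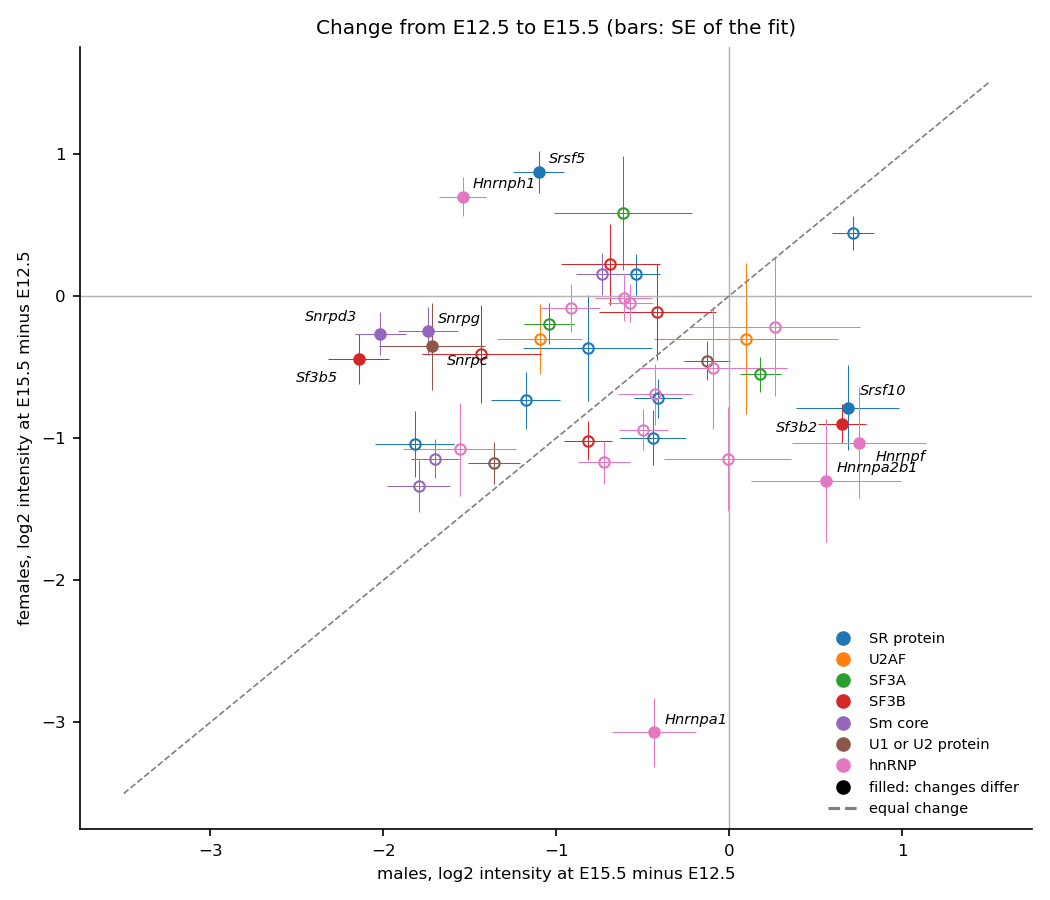
Change in log2 intensity from E12.5 to E15.5 in males (horizontal axis) and in females (vertical axis) for the 42 genes, with bars of 1 SE, filled points marking the 11 genes whose change differed between the sexes, and a diagonal line of equal change. Hnrnph1 and Srsf5 lie above the line and Hnrnpa1, at -3.07 in females and -0.43 in males, lies far below it.

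The sexes were then set against each other on the same days. Called were 2.38% of the members at E12.5 and E13.5, and 16.7% at E14.5 and E15.5 and at E17.5 and E18.5. Of all genes, 12.7%, 34.8% and 42.5% were called, so the share grew for all genes as well. At E12.5 and E13.5, 0 of the 42 genes were higher in females and 1 was lower, where 7.06% and 5.67% of all genes were so. The 1 gene was Sf3b4, an SF3B subunit, which read 7.47, 7.51, 7.01 and 6.81 on the female arrays and 9.23, 9.11, 8.52 and 8.32 on the male ones. All 4 female arrays lay below all 4 male arrays, with a difference of -1.59 and an SE of 0.20 (limma, adjusted p = 6.79e-07). Its other probe was below detection on most arrays and differed by -0.94, which was not called. On these days 4 of 10 Sertoli markers and 2 of 9 germ cell markers were also lower in females, with a Sertoli mean of 5.05 in females and 6.65 in males at E12.5, and their part was not tested.

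At E14.5 and E15.5, 3 genes were higher in females and 4 lower, where 16.9% and 17.9% of all genes were so (34.8% in either direction). Hnrnph1 was higher by 1.92 with an SE of 0.10, the female arrays reading 12.33, 12.12, 12.48 and 12.37 and the male ones 10.70, 10.75, 10.08 and 10.10. All 5 of its probes were called in the same direction here, with differences from 1.18 to 1.92. Srsf5 was higher by 1.42 and Snrpg by 1.16, again with no overlap between the sexes, although the second probe of Srsf5 gave 0.93, under 2-fold. Hnrnpa1 differed by -2.58 with an SE of 0.17, and its other probe by -1.59. Sf3b2 read 10.77, 10.69, 10.56 and 10.39 in females and 11.84, 11.78, 12.44 and 12.32 in males, a difference of -1.49 with an SE of 0.10 (limma, adjusted p = 8.79e-13). Hnrnpf, which like Hnrnph1 binds runs of G, differed by -1.37, and Sf3b4 by -1.10 with overlapping arrays, its other probe being below detection on all of them. Germ cell markers were lower in females for 8 of 9 at these days. Their means were 8.55 at E14.5 and 7.05 at E15.5 in females, against 10.6 and 10.0 in males. The exception was Dazl, which averaged 12.20 and 11.83 in females and 11.53 and 10.99 in males. Of 5 granulosa markers, 3 were higher in females. The part of these markers was not tested. Without the first array of E14.5 males, 12 genes were called in place of 7.

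At E17.5 and E18.5, 6 genes were higher in females and 1 lower, where 20.0% of all genes were higher and 22.5% lower. The 1 lower gene made up 2.38% of the members, well under the share of all genes. The 6 higher genes made up 14.3%, which lay nearer to that share. With arrays scaled to a common median, the calls became 11 higher and 1 lower. The median difference of the members was 0.33, against -0.02 for all genes. Srsf3 read 8.53, 8.18, 8.11 and 8.12 in females and 6.30, 5.88, 6.79 and 6.45 in males, with no overlap. It differed by 1.88 with an SE of 0.16 (limma, adjusted p = 1.36e-10), and its other probe by 1.78. Sf3b5 was higher in females by 1.38, Snrpb by 1.18, Srsf5 by 1.16 and Hnrnph1 by 1.09, the last with overlapping arrays. Sf3b6 was detected on 3 of 4 female arrays and on 0 of 4 male ones and was at least 1.87-fold higher in females. Sf3b2 was still lower, by -1.29. At these days 6 of 10 Sertoli cell markers, 5 of 6 endothelial markers and 4 of 5 granulosa markers were lower in females. Germ cell markers went both ways, with 4 of 9 lower in females and 1 higher. The germ cell marker Dppa3 averaged 12.25 and 13.51 in E17.5 and E18.5 females, against 7.79 and 7.73 in males. At E18.5 the Sertoli markers averaged 4.91 in females and 7.56 in males. Clu, a further Sertoli marker, averaged 4.6 in E18.5 females and 10.3 in E18.5 males. The part of these cells in the differences was not tested.

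Over the 6 days outside E16.5, the difference between the sexes depended on the day for 32 of the 42 genes (limma moderated F test over 5 contrasts), where 70.9% of all genes did so. The smallest adjusted p belonged to Hnrnph1, at 7.21e-11, followed by Hnrnpll, at 7.45e-10, Srsf5, at 2.40e-09, and Hnrnpa1, at 5.26e-08. Hnrnpll, a relative of Hnrnpl known from T cells, read 9.13 and 9.12 in females and 9.41 and 9.40 in males at E12.5, and 9.79 and 9.87 against 8.59 and 8.47 at E14.5. By E18.5 it read 8.95 and 8.74 in females and 9.87 and 9.83 in males, so the order of the sexes turned and turned back.

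**Figure D4:**
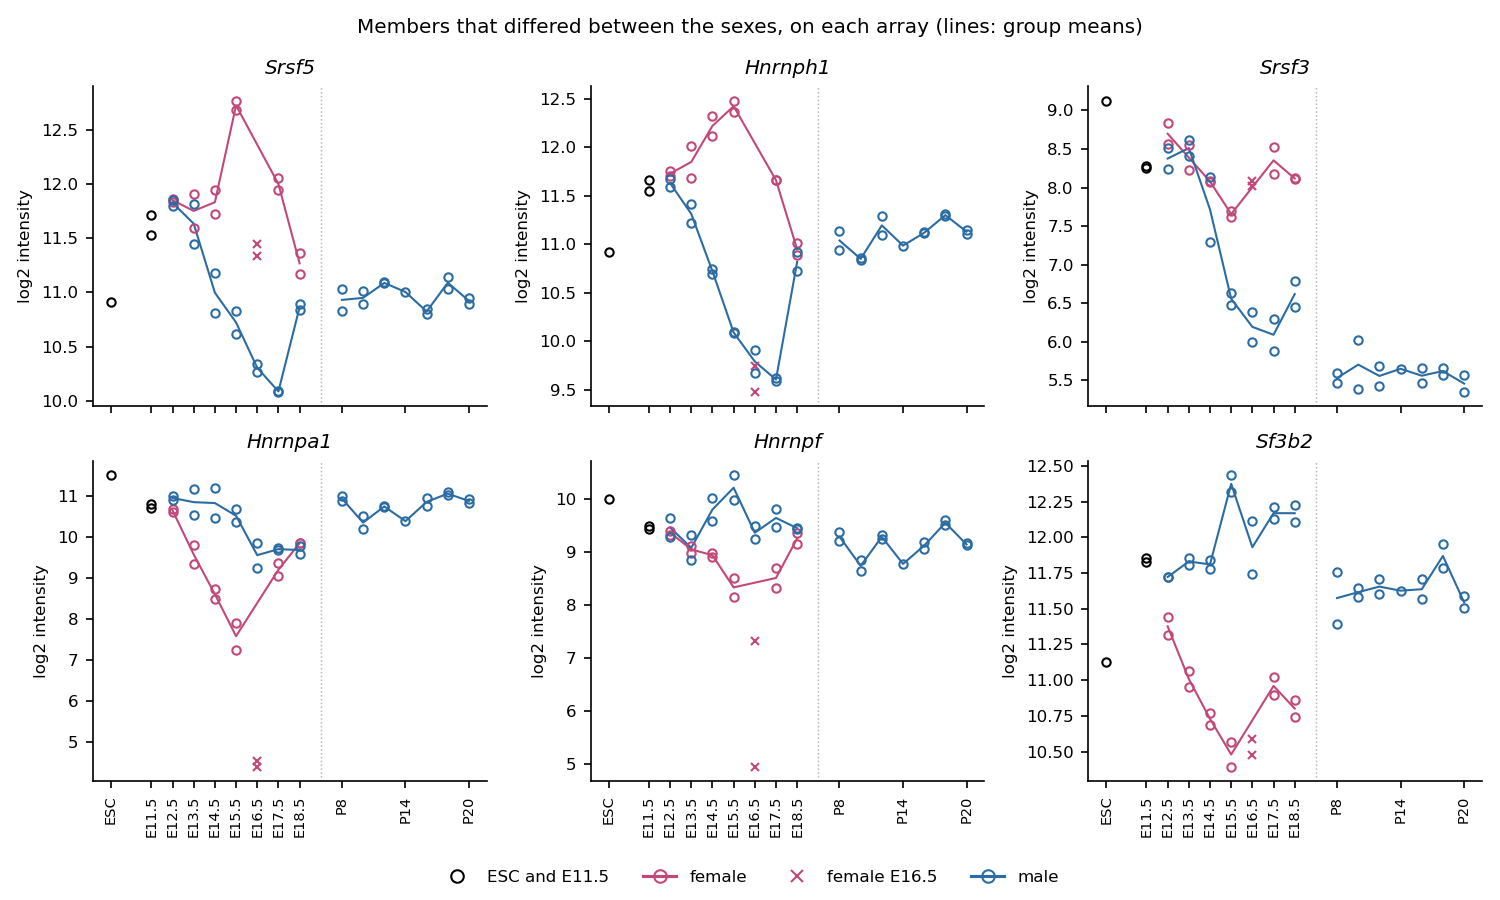
Log2 intensity of 6 genes (Srsf5, Hnrnph1, Srsf3, Hnrnpa1, Hnrnpf and Sf3b2) on each array by age, in females and males, with points for arrays and lines through group means. Srsf5 reaches 12.77 and 12.68 in E15.5 females, where males read 10.62 and 10.83, while Hnrnpa1 falls to 7.92 and 7.26 in E15.5 females and is at 9.87 and 9.85 by E18.5.

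Later in fetal life, of the genes called lower by E15.5 in females, only Hnrnpa1 was called higher again, on its brightest probe. Comparing E17.5 and E18.5 with E15.5 in females, 3 genes were higher and 3 lower. That was 7.14% of the members each way, where 8.99% and 9.17% of all genes were so. With arrays scaled to a common median, 21 were higher and 0 lower. Hnrnpa1 read 9.06 and 9.37 at E17.5 and 9.87 and 9.85 at E18.5, above both arrays of E15.5, and rose by 1.95 with an SE of 0.21 (limma, adjusted p = 4.94e-08). Its other probe differed by 0.38, which was not called. Srsf6, an SR protein, read 7.32 and 7.79 at E15.5 and 8.52, 8.43, 8.86 and 9.15 later, and rose by 1.18. Sf3b6 was also called higher, from 0 of 2 arrays detected to 3 of 4, but too dim to give a fold. Hnrnph1 fell by 1.12 and Srsf5 by 1.09 on the brightest probes, while 3 of the 4 other probes of Hnrnph1, at -0.034 to -0.94, and the other probe of Srsf5, at -0.36, missed the call. Srsf5 read 11.17 and 11.36 at E18.5, below its level at E12.5. Srsf12, a divergent SR protein, was called lower by -1.11 with overlapping arrays. Of the granulosa cell markers, 4 of 5 were lower at the later days, with a mean of 6.37 at E15.5 and 4.85 at E18.5, and their part was not tested.

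In males over the same interval, 0 genes were higher and 1 was lower, where 8.79% of all genes were higher and 4.90% lower. The 1 gene was Hnrnpul1, an hnRNP U relative, which read 7.56 and 6.92 at E15.5 and 6.13, 6.70, 5.85 and 5.72 later, a change of -1.14 (limma, adjusted p = 0.0202). It was no longer called without the first array of E17.5, and its 3 other probes, at -0.41 to -0.78, were not called. The low Sm core levels of E15.5 males were still there at E18.5, at 10.64 and 10.71 for Snrpb and 10.09 and 10.04 for Snrpd1, with changes of 0.03 and -0.17 against E15.5 that were not called. For Snrpd3 the E18.5 arrays read 11.18 and 11.46, above those of E15.5, and the change over E17.5 and E18.5 was 0.75, under 2-fold. Sertoli, endothelial and granulosa markers were higher at the later days in 5 of 10, 5 of 6 and 4 of 5 genes, and 3 of 9 germ cell markers were lower.

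The arrays of E16.5 females stood apart, with lower intensities and a larger spread between the duplicates than any other group: the standard deviation between the pair over all genes was 0.67, against 0.26 to 0.55 in the other fetal PGC. Against the mean of E15.5 and E17.5 females, 12 of the 42 genes were lower and 0 higher, where 9.47% of all genes were lower and 6.65% higher. The 12 were 7 of 14 hnRNPs, 2 SR proteins, 1 SF3A subunit, 1 SF3B subunit and Snrpa.

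Hnrnpa2b1 read 5.48 and 7.97 at E16.5, against 11.10 and 11.06 at E15.5 and 11.41 and 11.39 at E17.5, a difference of -4.51 with an SE of 0.38 (limma, adjusted p = 1.20e-09). It was detected on 1 of the 2 arrays, which lie far apart from each other for this gene. Hnrnpa1, at 4.54 and 4.41, was below detection on both and at least 2.38-fold lower, and the measured means differed by -3.93. Srsf10 was at least 3.35-fold lower, Sf3b4 at least 1.81-fold and Hnrnph3 at least 1.77-fold. Hnrnpk differed by -3.05, Snrpa by -2.65, Hnrnph1 by -2.44 and Hnrnpf by -2.28. Hnrnpul1, Srsf12 and Sf3a2 were called lower but were too dim for a fold.

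Other probes of the same genes did not all give this drop. The 5 probes of Hnrnph1 were each called lower, by -2.29 to -3.10, whereas the other probe of Hnrnpa2b1 differed by -0.47, which was not called, a further probe of Hnrnpa1 by 0.25, one of Snrpa by 0.27 and one of Hnrnpk by 1.58, the last called higher. One other probe of Srsf10 gave -0.85, under 2-fold, and the other probe of Sf3b4, below detection on all 6 arrays, gave -0.24. The Sm core genes were 0 of 5 called, with levels of 12.11 and 12.09 for Snrpd3 and 11.35 and 11.40 for Snrpb, a difference of 0.03 for Snrpb. Srsf1, Srsf2 and Srsf3 differed by -0.063, -0.12 and 0.05. With arrays scaled to a common median, 32 genes were lower, and Snrpb and Srsf3 turned to -1.58 and -1.18. The lower level of Hnrnpa1 in E15.5 than in E12.5 females was measured outside these arrays, on both of its probes.

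**Figure D5:**
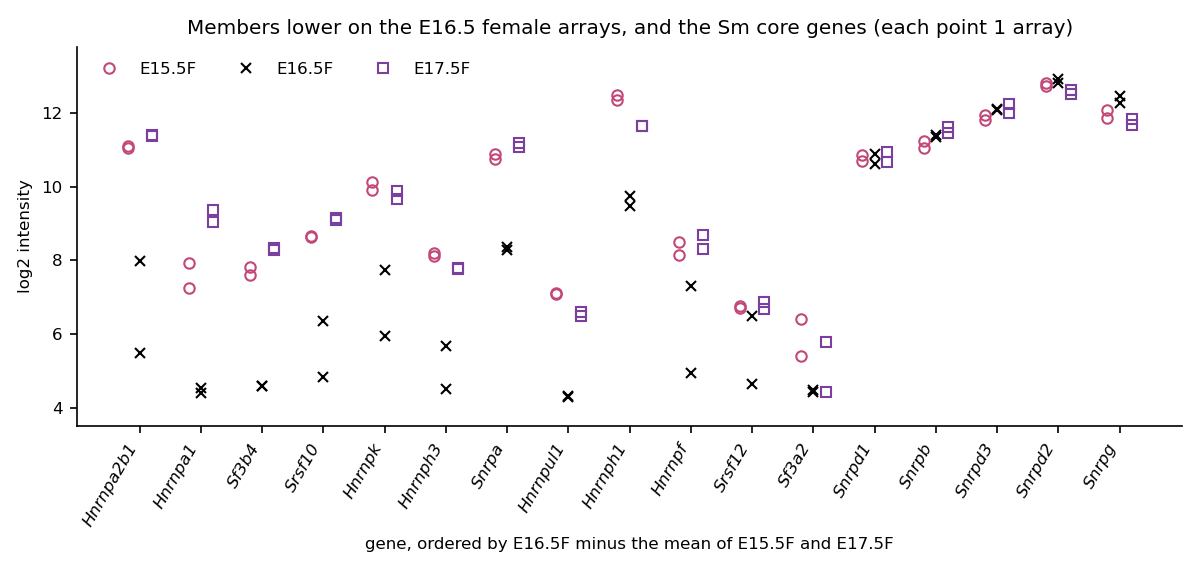
Log2 intensity on the 2 arrays each of E15.5, E16.5 and E17.5 females for the 12 genes called lower at E16.5 and for the 5 Sm core genes. The E16.5 points of Hnrnpa2b1 lie at 5.48 and 7.97, far below the neighbouring days, while those of Snrpd3, at 12.11 and 12.09, lie among them.

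After birth 7 of the 17 snRNP genes were higher than in late fetal males, and Snrpa and Sf3b4 were lower. At P8 and P10, 11 of the 42 genes were higher than at E17.5 and E18.5 and 4 were lower, where 18.4% and 18.6% of all genes were so. The median difference of the members was 0.53, against 0.02 for all genes. Snrpa1 read 9.03, 9.19, 8.25 and 8.65 before birth and 11.16, 10.86, 10.84 and 10.69 after it, with no overlap, and was higher by 2.11 with an SE of 0.11 (limma, adjusted p = 8.65e-15). The other probe of Snrpa1 was below detection on all arrays of both ages. Of the Sm core, Snrpb was higher by 1.51, Snrpg by 1.46 and Snrpd3 by 1.13, while Snrpd1, at 0.97, missed 2-fold. Snrpb read 12.15, 12.06, 12.23 and 11.95 at P8 and P10, within the range of its E12.5 male arrays or just below it.

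Srsf4 was higher after birth by 1.44, Sf3a1 by 1.43, Sf3b3, a large SF3B subunit, by 1.26, and Hnrnpab, an hnRNP of the A and B type, by 1.26. Hnrnpu, which binds nuclear scaffolds, was detected on 3 of 4 arrays after birth and 0 of 4 before and was at least 1.63-fold higher. The 4 lower genes were Hnrnph3, at -1.83, Sf3b4, at -1.79, Snrpa, at -1.52, and Hnrnpk, at -1.20. The arrays of each lay apart between the ages. When the arrays were scaled to a common median, 32 genes were higher and 0 lower, Hnrnpk and Snrpa turned to 0.90 and 0.43, and the median of all genes moved by 1.08. The share of higher genes among all called genes was then 86.2% in place of 49.7%. Other probes of these genes disagreed in part, since a further probe of Hnrnpk gave 0.66 and one of Snrpa -0.29. The other probe of Sf3b4, detected on all 4 arrays after birth and 0 of 4 before, turned the direction, at 0.86 (limma, adjusted p = 0.000719). Srsf3 did not come back: its arrays read 5.60, 5.46, 5.38 and 6.02 at P8 and P10, a difference of -0.74 from late fetal males that is under 2-fold. Endothelial markers were lower after birth in 5 of 6 genes, granulosa markers in 3 of 5, germ cell markers in 4 of 9 (1 was higher) and erythroid markers in 2 of 4. The part of these cells was not tested.

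Between P8 to P10 and P18 to P20, 0 of the 42 genes were called, where 1.23% of all genes were higher and 0.338% lower in limma (1.56% in either direction). At an unadjusted p under 0.05 there were 2 genes, and the other settings tried also called 0. Srsf1 differed by 0.00 with a 95% interval of -0.20 to 0.20, Snrpb by 0.16 with an interval of -0.04 to 0.36, and Hnrnpa1 by 0.32 with an interval of -0.03 to 0.68.

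Early PGC, taken as E11.5 and both sexes at E12.5, were set against the single ESC array. In PGC 5 of the 42 genes were higher and 2 lower, where 13.2% and 14.2% of all genes were so. Srsf6 read 10.33 in ESC and between 8.42 and 8.95 on the 6 PGC arrays, and was lower by -1.62 with an SE of 0.21 (limma, adjusted p = 7.26e-07). Hnrnpu was lower too, by -1.67, and was detected in ESC and on 1 of 6 PGC arrays. Hnrnpul1, undetected in ESC, was at least 3.10-fold higher in PGC, Srsf12 at least 1.57-fold, and Sf3a2 at least 1.49-fold with overlapping arrays. Other probes of Hnrnpul1 gave -0.059 to 0.98 and were not called. Sf3b4 was higher by 1.58 and Hnrnph3 by 1.38, and both turned, to -0.084 and -0.31, when arrays were scaled to a common median. The other probe of Sf3b4, detected in ESC and on 0 of 6 PGC arrays, gave -2.22 (limma, adjusted p = 2.93e-06). Germ cell markers were higher in PGC for 5 of 9 and mesenchymal markers lower for 3 of 7. Erythroid markers were higher for 2 of 4, Sertoli markers for 3 of 10 and endothelial markers for 2 of 6. The erythroid mean was 7.25 and 12.65 on the E11.5 arrays, against 4.44 in ESC. At E12.5 it was 5.23 in females and 6.80 in males, and the part of these other cells was not tested. None of the 5 Sm core genes was called, with Snrpb higher by 0.64 and Snrpd1 by 0.33. When the arrays were scaled to a common median, 29 genes were lower and 1 higher, and Snrpb and Snrpd1 turned to -1.13 and -1.45. The share of higher genes among all called genes was then 3.81% in place of 48.2%. With 1 ESC array the spread of that group is taken from the others.

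Other genes of the pathway were read from lists of spliceosome proteins (49 tested), splicing regulators (41), kinases of SR proteins (7), snRNP assembly factors (15) and nonsense-mediated decay factors (7). In males from E12.5 to E15.5, 6 of 15 assembly factors fell and 1 rose, with a median change of -0.78, where 16.2% of all genes fell and 18.5% rose. They included Wdr77, at -1.95, Gemin6, at -1.82, and Smn1, the SMN protein itself, at -1.68. At this age 4 of 5 Sm core genes were lower, and a link between these changes was not tested. Of the spliceosome proteins 9 rose and 8 fell, a share of 34.7% that equals that of all genes. They included Prpf40b, a U1-associated protein, at 2.50, Prpf6, of the tri-snRNP, at 2.11, and Rbm8a, of the exon junction complex, at -1.95. Of the splicing regulators 7 rose and 9 fell, 16 of 41 in all, near the share of all genes. Celf2 rose by 3.42, Pcbp1 fell by 2.98, and Rbfox3, known from neurons, was undetected at E12.5 and at least 9.04-fold higher at E15.5.

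In females over those days 3 assembly factors rose and 3 fell, where 14.1% of all genes rose and 14.9% fell, with Prmt1, an arginine methyltransferase, at -1.84 and Gemin7 at 1.68. Celf2 rose by 1.98 and Tardbp, which represses cryptic exons, by 2.09, while Rbm8a fell by 1.81. At E17.5 and E18.5, 7 of 15 assembly factors were higher in females and 1 was lower, where 20.0% and 22.5% of all genes were so. Gemin6 was higher by 3.02, Gemin7 by 1.86 and Wdr77 by 1.70. Among the regulators 9 were higher in females and 9 lower, or 43.9%, near the 42.5% of all genes. Rbfox3 and Mbnl2, a muscleblind protein, were undetected on all 4 female arrays and at least 19.03-fold and 10.8-fold lower there. From late fetal males to P8 and P10, 4 of 15 assembly factors rose and 0 fell, where 18.4% of all genes rose and 18.6% fell, with Gemin2 at 2.15 and Gemin6 at 1.69, and Rbfox3 fell by 4.44. Between P8 to P10 and P18 to P20 none of the 5 lists held a called gene in limma, while 171 of all 10935 genes were called.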

How the data were processed

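RNA was amplified, labelled with biotin and hybridised to mouse expression beadchips, per the labels. Deposited values were the bead intensity of 25697 probes on each of 44 arrays, unscaled between arrays, with a detection p-value deposited beside each intensity. BeadStudio 3.2, RMA and lumi stand in the submitters' processing notes, without roles. A second table deposited by the authors held log2 values, used as an alternative. Genome build and annotation were not given in the sources used here, and 0 value columns were left unmatched to a sample. Gene symbols came from the platform annotation: 23978 probes had 1 symbol and 1719 had none.

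Background was estimated through those detection p-values, after which arrays were quantile-normalised with an offset of 16 (neqc, limma 3.58.1, R 4.3.3). Probes with a detection p-value under 0.01 on at least 2 arrays were kept (16086), and the brightest probe represented each gene. The brightest probe was the one with the highest mean over all arrays. Means of 23 groups were fitted to 10935 genes (21 residual and 3.63 prior degrees of freedom). Calls required both an adjusted p below 0.05 and a 2-fold change. The F test of sex by day needed the adjusted p alone. The text names the up to 6 called members with the largest rise and fall whose arrays did not overlap, a set of reference members, and up to 3 called genes of each other list. Other called members, single probes and the 11 members whose change differed between the sexes were named after their values were seen. The members and lists were chosen with earlier results of these data known. The script was tested on simulated data. Alternatives were an offset of 50, no background correction, median scaling, the authors' log2 values, detection on at least 4 arrays, no filter, every probe on its own, weights per array, a block on the replicate number, and leaving out each array. Leaving out both arrays of E16.5 females was added after seeing the data. The number of arrays limits the precision, and read depth does not apply.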

Additional observations from a re-analysis of the deposited data

Results flagged for a closer look

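For 11 genes the change in level from E12.5 to E15.5 differed between female and male PGC by a test of that difference in the limma fit over all genes, with 2 arrays per sex and day. On the log2 scale and as females minus males, the difference was 2.24 for Hnrnph1, 1.97 for Srsf5, 1.75 for Snrpd3, 1.70 for Sf3b5, 1.49 for Snrpg and 1.36 for Snrpc. In the other direction it was -1.47 for Srsf10, -1.55 for Sf3b2, -1.78 for Hnrnpf, -1.86 for Hnrnpa2b1 and -2.63 for Hnrnpa1. On the brightest probes, every array of Srsf5 and Hnrnph1 in E15.5 females lay above those of E12.5 females, and every array in E15.5 males below those of E12.5 males, while Sf3b2 moved the opposite way. Other probes differed: in females the other probe of Srsf5 changed by 0.065 with overlapping arrays, and 2 of the 4 other probes of Hnrnph1 by -0.64 and -1.02. The difference between the sexes was not called on the other probes of Srsf5 (0.90), Hnrnpa1 (-0.85) and Hnrnpa2b1 (-0.78), on 2 of the 4 of Hnrnph1 (1.85 and 0.80) and on 1 of the 2 of Srsf10 (-0.37). The share of all genes that differed was 38.0%, so the 11 of 42 members are no excess over the background. No group had enough arrays for a single array to be tested as an outlier.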

How the results depend on the processing

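The counts below are members called, after the main count in each case. Scaling arrays to a common median moved the median of all genes by -0.45 for E16.5 females, -0.86 for early PGC against ESC, -0.12 and 0.16 for the early and late female intervals, -0.13 for P18 to P20 and 1.08 for P8 to P10. It gave 32 in place of 12 for E16.5 females, 30 in place of 7 against ESC (1 higher), 24 in place of 11 and 21 in place of 6 (21 higher) for the early and late female intervals, 0 in place of 1 for late males, 32 in place of 15 after birth, and 12 in place of 7 for the sexes at E17.5 and E18.5 (11 higher). The early male interval kept a count within 1.5 times, with 20 lower and 0 higher in place of 15, as did sex by day (22 against 32) and the sexes at E14.5 and E15.5 (10 against 7). Under it the share of higher genes among all called was 16.0% in place of 48.5% and 94.4% in place of 49.5% for the early and late female intervals, 85.8% in place of 64.2% for late males, 64.4% in place of 78.4% for P18 to P20 and 0% in place of 41.2% for E16.5 females. Without background correction the counts were 3 against ESC, 7 and 3 for the early and late female intervals and 0 for late males, which an offset of 50 also gave. The authors' log2 values gave 2 for late males, 2 for the sexes at E12.5 and E13.5 and 13 for those at E14.5 and E15.5.

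Values turned sign under median scaling against ESC for Hnrnph3 (-0.31), Hnrnpk (-1.03), Sf3b4 (-0.084), Snrpb (-1.13), Snrpd1 (-1.45) and Srsf2 (-1.18), after birth for Hnrnpk (0.90) and Snrpa (0.43), and for E16.5 females for Snrpb (-1.58) and Srsf3 (-1.18). Another probe turned the sign against ESC for Hnrnpa1 (1.66), Hnrnpul1 (-0.059) and Sf3b4 (-2.22), after birth for Hnrnpk (0.66), Sf3b4 (0.86) and Snrpa1 (-0.24), and for E16.5 females for Hnrnpa1 (0.25) and Hnrnpk (1.58). The cause was not tested.

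Leaving out 1 array at a time gave 11 to 12 for E16.5 females, 6 to 7 against ESC, 7 to 9 for early females (7 without the second array of E12.5), 4 to 6 for late females, 13 to 15 for early males, 0 to 2 for late males (0 and 2 without the first and the second array of E17.5), 0 to 0 for P18 to P20, 14 to 17 after birth, 30 to 34 for sex by day, 1 to 2 for the sexes at E12.5 and E13.5 (2 without the first array of E12.5 females or the second of E13.5 males), 6 to 12 at E14.5 and E15.5 (12 without the first array of E14.5 males) and 7 to 8 at E17.5 and E18.5. A group left with 1 array is assumed to vary like the others. With the replicate number as a block the counts were 12, 6, 11, 6, 15, 1, 0, 15, 33, 1, 7 and 7 in the same order. Over 210 pairs of groups, deviations of equal numbers correlated between -0.12 and 0.33 (median 0.01, 21 over 0.1). Most of these pairs join different ages, so the median cannot tell whether arrays of some groups were paired by number. Array weights, no filter, detection on at least 4 arrays and leaving out both arrays of E16.5 females moved 0 of the counts by more than 1.5 times. Signal limits Sf3b1, Sf3b6, Hnrnpu and Srsf12 most, which were detected on 2, 13, 16 and 19 arrays.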
